A study of Mus musculus with 8 samples.

Results

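The clustered protocadherins are the genes named Pcdha, Pcdhb and Pcdhg, which lie in 3 neighbouring clusters on mouse chromosome 18. Every record of the transcript tables whose symbol begins with one of these names was taken. This gave 57 transcript records for 57 genes, out of 30769 records and 24043 genes in all. The alpha cluster held 14 of them, the beta cluster 22 and the gamma cluster 21. The cells were mouse embryonic stem cells of mixed C57BL/6X129Sv background, kept for less than 20 passages with leukemia inhibitory factor. They were p53-/- or p53+/+. Cells of each genotype were treated with 0.5 uM Adriamycin, the DNA-damaging drug doxorubicin, for 8 h or left untreated. Of each of these 4 combinations, 1 library was made from RNA immunoprecipitated with an antibody to hnRNP L (RIP) and 1 from input RNA with a poly A tail, so that each of the 8 groups held 1 library. The labels give the RIP RNA no statement on poly A selection, and control immunoprecipitations were not analysed here. No label says whether the cultures of the 2 genotypes were of 1 clone or several, nor whether a RIP and its input came from 1 dish.

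Clustered protocadherins are cell surface adhesion proteins of the cadherin superfamily, best known from neurons, where combinations of them give each cell a surface identity used for recognition of self. In the alpha and gamma clusters each gene is a variable first exon with its own promoter, spliced to constant exons shared by the whole cluster. Beta genes are single exons with no shared part. Which promoters a neuron uses is largely a matter of chance and depends on the insulator protein CTCF and on cohesin, while the C-type genes at the ends of the alpha and gamma clusters are used more uniformly. The gamma genes divide by sequence into the A, B and C subfamilies. hnRNP L is a nuclear RNA-binding protein that prefers CA-rich RNA and regulates splicing.

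The structure of the clusters was visible in the records. In build mm9 the alpha records spanned chr18:37089939-37347314, with 14 different start positions, and all 14 ended within 15 bases of the same last base. The gamma records spanned chr18:37821599-38001526, with 21 start positions and again a common end for all 21, each 4480 to 5079 bases long over a genomic span of 22327 to 179926 bases. The 22 beta records, between 37424652 and 37681073, were each as long as their genomic span, with no intron. Records of the alpha or of the gamma cluster therefore share their last exons and are not independent, and the estimate of each rests on how the authors' software divided the reads of those exons. The gamma members were 12 A, 6 B and 3 C genes. One further record inside the gamma span carries no symbol in the gene table and was not counted. It had 8.08, 12.9, 16.3 and 20.3 FPKM in the 4 RIP libraries, against 0.457, 0.301, 0.585 and 0.358 FPKM in the inputs, in the order p53-/- with Adriamycin, p53-/- untreated, p53+/+ with Adriamycin and p53+/+ untreated.

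Libraries held 3.21 to 4.94 Gb on annotated transcripts in RIP and 5.67 to 7.48 Gb in input. The share of the authors' normalising fragments that fell on the records was 41.1% to 65.2% in RIP and 87.6% to 90.6% in input, so FPKM as deposited ran lower in RIP for most genes. Trp53 itself had 121 and 140 FPKM in p53-/- inputs, against 173 and 236 FPKM in p53+/+ inputs, with Adriamycin and untreated. The labels do not say which part of the gene is deleted, so this does not check them. Mdm2, a p53 target, had 16.5 FPKM with Adriamycin and 14.8 FPKM untreated in p53-/- input, and 221 FPKM with Adriamycin and 25.4 FPKM untreated in p53+/+ input. All 10 embryonic stem cell markers examined, among them Pou5f1 and Nanog, were at 1 FPKM or more in all 8 libraries. Most of 23 fibroblast markers were higher in the p53-/- libraries: their FPKM summed to 543 to 644 in p53-/- inputs, against 16.5 to 28.5 in p53+/+ inputs, and 19 of the 23, against 5 to 8, were at 1 FPKM or more. In RIP the sums were 2512 to 2663 FPKM in p53-/- and 34.3 to 98.4 FPKM in p53+/+, most of it Bgn. Without Bgn they were 152 to 155 FPKM in p53-/- RIP and 6.94 to 8.67 FPKM in p53+/+ RIP, and 424 to 497 FPKM in p53-/- inputs and 15.4 to 24.5 FPKM in p53+/+ inputs. Pdgfra was lower in p53-/- than in p53+/+ in all 4 comparisons, and Tcf21 was at most 0.0334 FPKM in p53-/- libraries, against 1.04 FPKM in p53+/+ input with Adriamycin. Fewer cells of a type and less RNA per cell cannot be told apart in such bulk samples.

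Gamma protocadherin RNA was present in every library and stood far higher in RIP than in input, while alpha and beta RNA was close to 0 throughout. The 21 gamma members summed to 329.6 FPKM in p53-/- RIP with Adriamycin, 371 FPKM in p53-/- RIP untreated, 627 FPKM in p53+/+ RIP with Adriamycin and 441 FPKM in p53+/+ RIP untreated. The matching inputs had 11.8, 10.5, 22.1 and 12.4 FPKM. The lowest RIP sum was above the highest input sum, and each RIP library exceeded its own input by 28.0, 35.4, 28.4 and 35.4 times in FPKM as deposited. With libraries brought to a common scale by median ratios, the same 4 pairs gave 41.5, 52.4, 77.0 and 79.4 times. The alpha sums were 0.0233 to 0.131 FPKM in RIP and 0.0498 to 0.195 FPKM in input, and the beta sums 0.0560 to 0.331 FPKM in RIP and 0.0341 to 0.293 FPKM in input, so both overlapped between RIP and input.

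**Figure D1:**
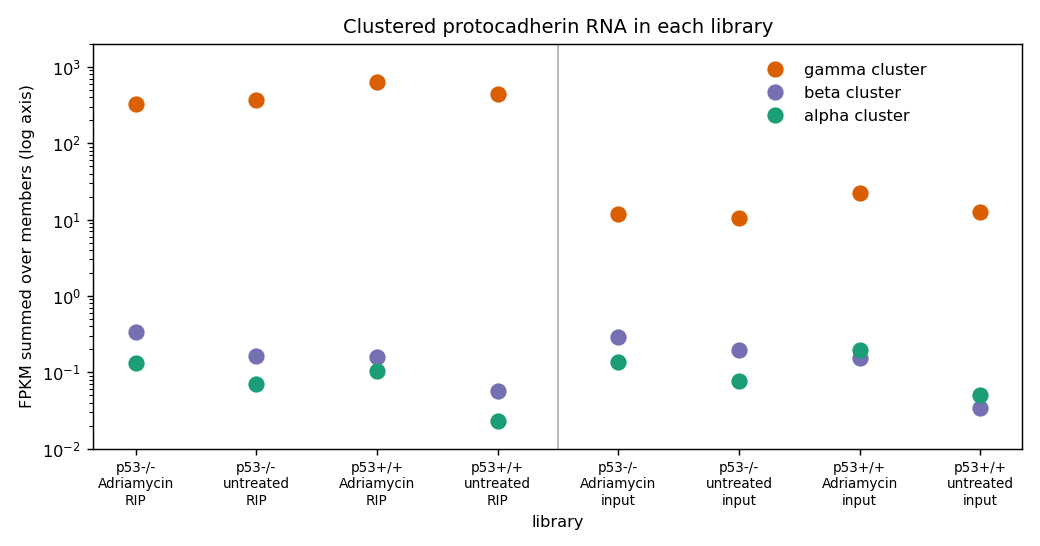
FPKM summed over the alpha (14), beta (22) and gamma (21) members in each library, on a log axis, with the 4 RIP libraries left of the 4 inputs and 1 point per cluster and library. Gamma lies between 329.6 and 627 FPKM in RIP and between 10.5 and 22.1 FPKM in input, and both other clusters reach at most 0.331 FPKM.

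No alpha member reached more than 0.118 FPKM and no beta member more than 0.104 FPKM in any library. The authors' upper bounds, which lie 2 SD above each estimate, were at most 0.179 FPKM for alpha and 0.162 FPKM for beta. The 5 alpha members with the highest means were Pcdha5, Pcdha4, Pcdhac2, Pcdha6 and Pcdha3, with 0.0136 to 0.0257 FPKM over the 8 libraries. Of the C-type alpha genes, Pcdhac2 was at 0.0608 FPKM in p53-/- RIP with Adriamycin, 0.0225 FPKM in p53+/+ RIP with Adriamycin and 0.0394 FPKM in p53-/- input with Adriamycin, and under 0.001 FPKM in the other libraries. Pcdhac1 was under 0.001 FPKM in all 8, as were Pcdha1, Pcdha2, Pcdha8 and Pcdha9.

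Among beta members Pcdhb22, Pcdhb17, Pcdhb7, Pcdhb3 and Pcdhb14 were highest, with means of 0.0159 to 0.0285 FPKM, and Pcdhb1 and Pcdhb10 were under 0.001 FPKM in every library. For a record that shares no exon, the width of the bounds corresponds to a number of fragments, 4 divided by the square of the relative half-width. For the beta genes, which share no exon, this number was within 0.02 of a whole number in 75 of the 78 estimates above 0, and in 69 of them it was 1 to 4 fragments. The other 98 of the 176 beta estimates were listed at 0. The lower bound was above 0 in any library for 6 alpha and 4 beta members, against all 21 gamma members in all 4 RIP libraries and 15 gamma members in all 4 inputs. At this depth levels of single alpha or beta genes could not be compared between groups.

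The question of the RIP comparison was which RNAs were recovered with hnRNP L beyond their level in the cell. The 21 gamma records share their last exons, so counts over them are not counts of 21 independent genes. All 21 gamma members were higher in RIP in each of the 4 pairs, where 34.5% of the 20683 genes above 0 in any library were. For all 21 the lowest scaled RIP value lay above the highest scaled input value, against 17.3% of genes, and in every pair the authors' bounds of all 21 lay apart, with RIP above. The bounds of all records lay apart in this way in 19.0% (p53-/- with Adriamycin), 16.4% (p53-/- untreated), 9.58% (p53+/+ with Adriamycin) and 10.2% (p53+/+ untreated) of records. With limma over all 20683 genes, the 4 combinations as a block and no filter, all 21 gamma members were called higher (Benjamini-Hochberg adjusted p 0.000326 to 0.0111), against 26.7% of genes. None of the 14 alpha members and none of the 20 beta members above 0 in any library was called in either direction (smallest adjusted p 0.216 and 0.151 in limma). The gamma differences ran from 1.40 to 6.04 with a median of 2.62 on the log2(scaled FPKM + 1) scale, where the median of all genes was 0.02. Because 1 FPKM is added, this scale understates the change of members that are low in input.

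Under the filter used for the main test, a mean of 1 FPKM or more over the 8 libraries, 18 gamma members were among 11877 genes tested and all 18 were called higher, where 37.3% of the genes were called higher and 37.8% lower. Only 4 gamma members had an input mean of 1 FPKM or more, so most passed this filter through RIP and had to differ, and that count supports nothing by itself. Pcdhga6, Pcdhga8 and Pcdhgc4 did not pass it. Their differences without the filter were 1.40 ± 0.20, 1.62 ± 0.21 and 1.72 ± 0.14 (SE, 4 pairs). The scaling sets how all genes divide: with FPKM as deposited the median of the 11877 genes was -0.72 and 13.1% were called higher and 61.2% lower. With FPKM as deposited and no filter, a setting chosen after seeing the data, all 21 gamma members were called higher. Each group held 1 library, so these p-values measure the spread between 4 combinations that also differ in genotype and treatment.

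**Figure D2:**
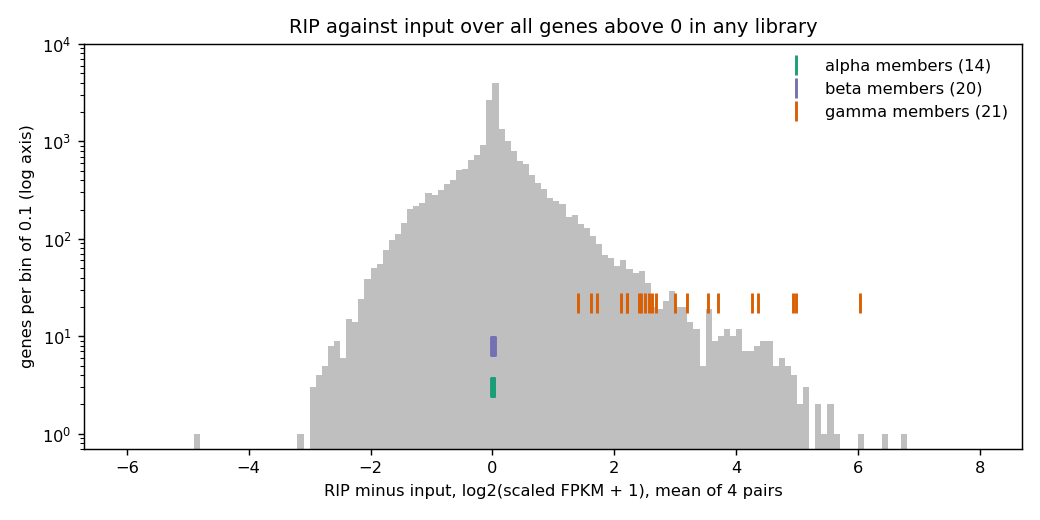
Mean RIP minus input difference over 4 pairs on the log2(scaled FPKM + 1) scale for 20683 genes above 0 in any library (grey, genes per bin of 0.1 on a log axis), with 1 tick for each alpha (14), beta (20) and gamma (21) member. Gamma members lie between 1.40 and 6.04, and alpha and beta members at 0 with most genes of very low level.

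Pcdhgc3, a C-type gene and the member with the highest mean over the 8 libraries (106 FPKM), stood at rank 3 of the 20683 genes by size of the RIP difference. It had 144 FPKM in p53-/- RIP with Adriamycin, 128 FPKM in p53-/- RIP untreated, 480 FPKM in p53+/+ RIP with Adriamycin and 83.4 FPKM in p53+/+ RIP untreated. Its inputs were at 2.34, 2.81, 9.001 and 2.03 FPKM in the same order. The lowest RIP value was above the highest input value, and p53+/+ with Adriamycin was highest in both kinds of library. The difference was 6.04 ± 0.26 (SE, limma without a filter, adjusted p 0.000330), and 5.73 without the p53+/+ Adriamycin pair.

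Pcdhga12, the last of the A genes along the cluster, was the steadiest of the abundant members. It had 44.4, 42.4, 28.5 and 44.9 FPKM in RIP and 0.984, 0.992, 0.933 and 1.27 FPKM in input, again for p53-/- with Adriamycin, p53-/- untreated, p53+/+ with Adriamycin and p53+/+ untreated. The genotypes overlapped in both kinds of library in FPKM as deposited. On the scaled values its RIP libraries had 46.9 and 47.1 FPKM in p53-/- and 53.6 and 76.1 FPKM in p53+/+, without overlap. The share of all genes whose genotypes lie apart in this way was not computed, for this member or those below. With so few libraries of each genotype, such a separation is not read as particular to a member. Its difference of 4.99 ± 0.11 stood at rank 15 of the same genes (limma without a filter, adjusted p 0.000326).

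Pcdhgb4, a B gene near the middle of the cluster, had the widest spread of RIP values in fold terms, from 6.73 to 157 FPKM. It had 12.6, 28.7, 6.73 and 157 FPKM in the same 4 RIP libraries, against 0.125, 0.376, 0.125 and 0.381 FPKM in the inputs. The p53+/+ untreated RIP library was the highest by far, while its input stood level with the p53-/- untreated input. The width of its bounds would correspond to 8.70 to 30.9 fragments in input and 461 to 1982 in RIP for a record that shares no exon. Gamma records do share exons, so these are not counts of its fragments. The difference was 4.94 ± 0.76 (limma without a filter, adjusted p 0.00591), and 4.02 without the p53+/+ untreated pair. The other 3 RIP values still lay above all input values.

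Pcdhgb7 and Pcdhga11, neighbours upstream of Pcdhga12, came next. Pcdhgb7 had 10.6, 12.3, 16.7 and 50.4 FPKM in RIP and 0.275, 0.602, 0.556 and 0.694 FPKM in input. Pcdhga11 had 18.3, 13.7, 27.8 and 25.3 FPKM in RIP and 0.505, 0.498, 0.716 and 0.760 FPKM in input. Both p53+/+ RIP libraries were above both p53-/- RIP libraries for each of these genes, a separation whose share over all genes was not computed. Their RIP differences were 4.26 ± 0.48 (limma without a filter, adjusted p 0.00213) and 4.36 ± 0.30 (adjusted p 0.000626).

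Of the other C-type genes, Pcdhgc5, which is best known from mature brain, went the other way between genotypes. It had 19.3 and 20.1 FPKM in p53-/- RIP, with Adriamycin and untreated, against 9.60 and 4.09 FPKM in p53+/+ RIP. Its inputs had 0.626 and 0.469 FPKM in p53-/-, against 0.136 and 0.275 FPKM in p53+/+. The p53-/- values lay above the p53+/+ values in both kinds of library, and the share of all genes that separate so was not computed. Pcdhgc4 stayed low, with 1.499, 3.08, 1.44 and 1.24 FPKM in RIP and 0.00294 to 0.0645 FPKM in input. In limma without a filter the RIP differences were 3.71 ± 0.28 for Pcdhgc5 (adjusted p 0.000722) and 1.72 ± 0.14 for Pcdhgc4 (adjusted p 0.000815).

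The remaining members named by size of difference were Pcdhga7, Pcdhga4, Pcdhgb5 and Pcdhga1, with 3.54 ± 0.20, 3.19 ± 0.41, 3.003 ± 0.29 and 2.69 ± 0.17 (SE; limma without a filter, adjusted p 0.000419, 0.00324, 0.00142 and 0.000527). Pcdhga1, the first gene of the cluster, was one of the 4 members with an input mean above 1 FPKM, at 2.34 ± 1.44 FPKM in input and 11.3 ± 2.07 FPKM in RIP (SD over 4 combinations). The 21 members stood at ranks 3 to 1199 of the 20683 genes above 0 in any library. By subfamily the median difference was 2.54 over the 12 A genes, 2.81 over the 6 B genes and 3.71 over the 3 C genes, and the ranges of the 3 subfamilies overlapped. Order along the cluster and the RIP difference had a Spearman correlation of 0.36 over the 21 members, which share exons and libraries.

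**Figure D3:**
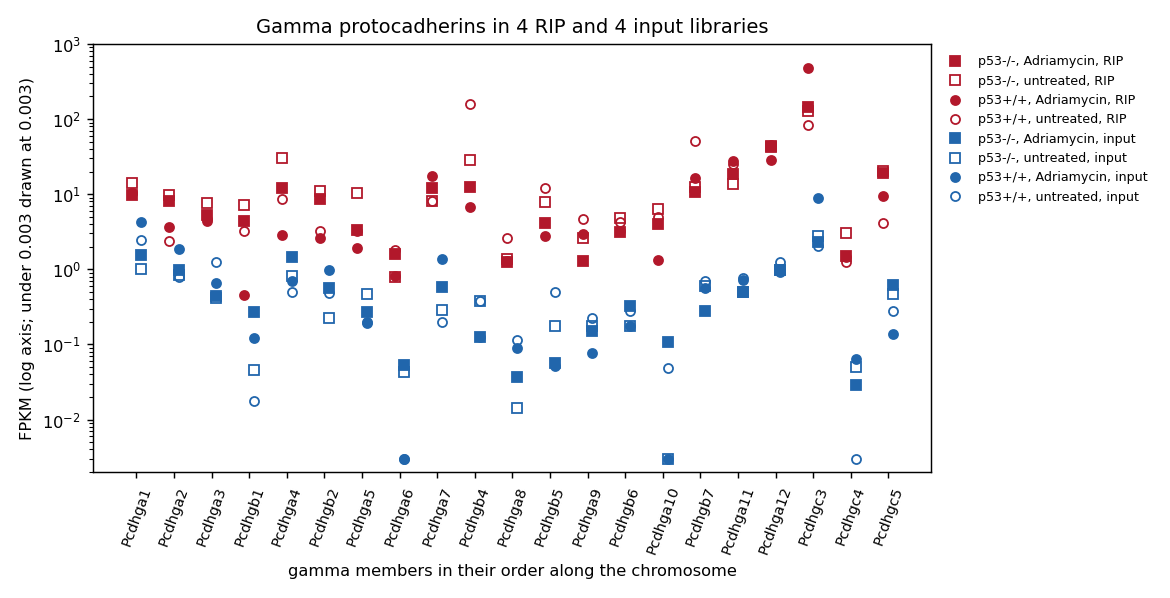
FPKM of the 21 gamma members in their order along the chromosome, on a log axis, with RIP in red left of input in blue, p53-/- as squares, p53+/+ as circles, and Adriamycin filled. For every member all 4 RIP points lie above all 4 input points, Pcdhgc3 has the highest mean in both, and Pcdhgb4 spreads from 6.73 to 157 FPKM in RIP.

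Long genes and long transcripts were in general higher in RIP. The median difference was -0.37 over 3551 genes spanning under 10 kb and 0.59 over 299 genes spanning over 200 kb. Over the 1511 genes with a span of 20 to 200 kb and a length of 4 to 6 kb, as the gamma records have, the median was 0.37, and 7.81% of them differed by 2 or more, against 5.03% of all 11877. The part of length in the gamma difference was not tested beyond these values.

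RIP and input libraries ranked the gamma members alike without being the same. Over the 21 members, Spearman correlations were 0.67 to 0.92 between RIP libraries, 0.74 to 0.89 between inputs and 0.62 to 0.85 between a RIP library and its own input. These describe members that share exons and libraries. Pcdhgc3 made up 43.7% and 34.4% of the gamma sum in p53-/- RIP, with Adriamycin and untreated, and 76.5% and 18.9% in p53+/+ RIP. In input it made up 19.9% and 26.8% in p53-/- and 40.7% and 16.3% in p53+/+. Pcdhgb4 took 35.6% of the p53+/+ untreated RIP sum and 1.07% to 7.74% of the other RIP sums, and the 6 B genes together held 52.2% of the p53+/+ untreated RIP sum.

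Pcdhga1 held a larger part of input than of RIP. It took 13.4% and 9.76% in p53-/- inputs and 19.5% and 19.7% in p53+/+ inputs, against 1.67% to 3.86% in RIP. A genes together made up 16.5% to 39.9% of the gamma sum in RIP and 49.3% to 62.6% in input, without overlap. Without Pcdhgc3 and Pcdhgb4, the scaled gamma sums of RIP exceeded those of input by 27.5 times in p53-/- with Adriamycin, 43.5 times in p53-/- untreated, 29.4 times in p53+/+ with Adriamycin and 44.8 times in p53+/+ untreated.

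**Figure D4:**
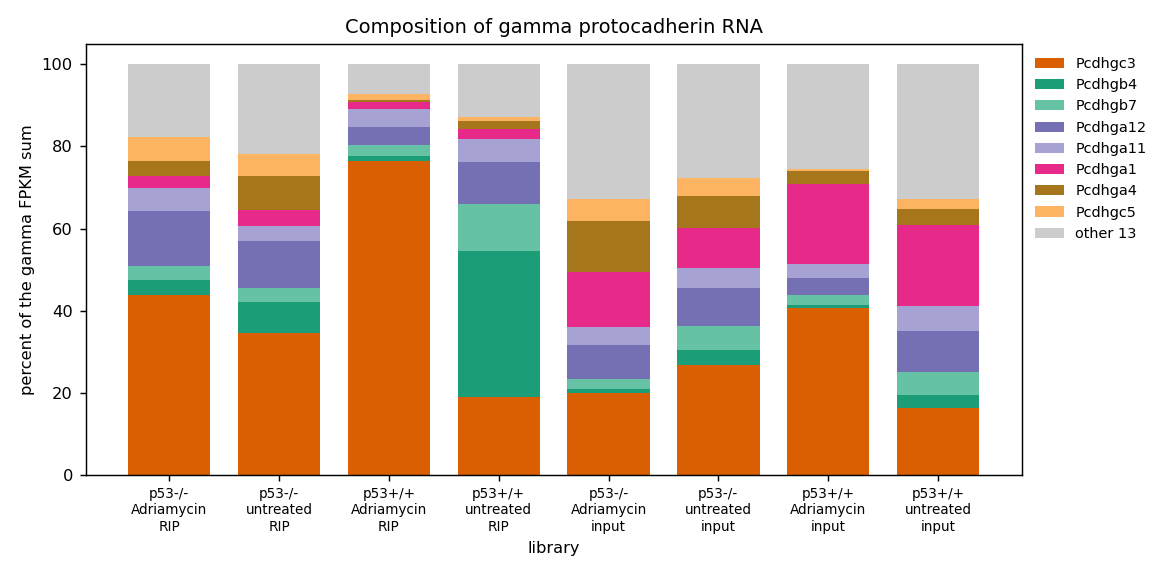
Share of the gamma FPKM sum held by each of 8 members and by the other 13 together, 1 stacked bar per library, with the 4 RIP libraries left of the 4 inputs. Pcdhgc3 holds 76.5% of p53+/+ RIP with Adriamycin, and Pcdhgb4 holds 35.6% of p53+/+ RIP untreated.

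The Adriamycin comparison asked which RNAs differ after DNA damage, with 1 library a side and no test. In p53+/+ input only Pcdhgc3 differed by 1 or more on the log2(scaled FPKM + 1) scale, by 1.51, where 5.64% of the 20683 genes were higher by that much. It had 9.001 FPKM with Adriamycin and 2.03 FPKM untreated, a scaled ratio of 4.05. In p53+/+ RIP it had 480 FPKM with Adriamycin and 83.4 FPKM untreated, a difference of 2.66 and a scaled ratio of 6.37. In p53-/- cells the differences were -0.22 in input and 0.10 in RIP. The bounds with Adriamycin lay above those of untreated cells in p53+/+ input and RIP, and in p53-/- RIP, and overlapped in p53-/- input. Of all records, 28.3% (p53+/+ input), 19.9% (p53+/+ RIP) and 16.0% (p53-/- RIP) had bounds apart in this direction.

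Pcdhga7 went the same way in p53+/+, with 1.37 FPKM with Adriamycin and 0.202 FPKM untreated in input, and 17.6 FPKM with Adriamycin and 8.17 FPKM untreated in RIP. The differences were 0.76 in input and 1.19 in RIP. In p53-/- cells they were 0.23 in input and 0.44 in RIP. Pcdhgc3, Pcdhga7 and Pcdhgc5 (1.26) were the 3 gamma members higher by 1 or more in p53+/+ RIP. Of all genes 7.23% were, and of the 11877 with a mean of 1 FPKM or more 9.36%.

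In the same RIP comparison 6 members were lower by 1 or more, against 3.17% of all genes and 5.38% of the 11877 with a mean of 1 FPKM or more. They were Pcdhgb4 (-4.29), Pcdhgb1 (-1.82), Pcdhgb5 (-1.80), Pcdhga10 (-1.43), Pcdhgb7 (-1.42) and Pcdhga4 (-1.28). In p53+/+ input the same 6 lay between -0.41 (Pcdhgb5) and 0.12 (Pcdhga4). All 6 were under 1 FPKM in both of these inputs, where the added 1 FPKM shrinks a change. Pcdhgb5 had 0.0514 FPKM with Adriamycin and 0.503 FPKM untreated, and Pcdhgb4 0.125 and 0.381 FPKM, with bounds apart for both genes. In this input comparison the bounds of 19.0% of all records lay apart with Adriamycin below. Pcdhgb1 and Pcdhga4 were higher with Adriamycin in this input comparison, at 0.121 and 0.704 FPKM, against 0.0175 and 0.493 FPKM untreated. In p53-/- RIP, Pcdhga5 (-1.45), Pcdhga4 (-1.34) and Pcdhgb4 (-1.20) were lower by 1 or more, against 0.150% of all genes and 0.253% of the 11877. None of the gamma members was higher by that much. No gamma member differed by 1 or more in p53-/- input, where 0.0967% of genes were higher and 0.116% lower. The median gamma difference was -0.50 in p53-/- RIP and -0.44 in p53+/+ RIP. It was 0.01 and -0.03 in the inputs of the same genotypes. The medians of all genes tested lay between -0.07 and 0.00. The gamma input medians are flattened by the added 1 FPKM, as only 4 gamma members had an input mean of 1 FPKM or more.

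**Figure D5:**
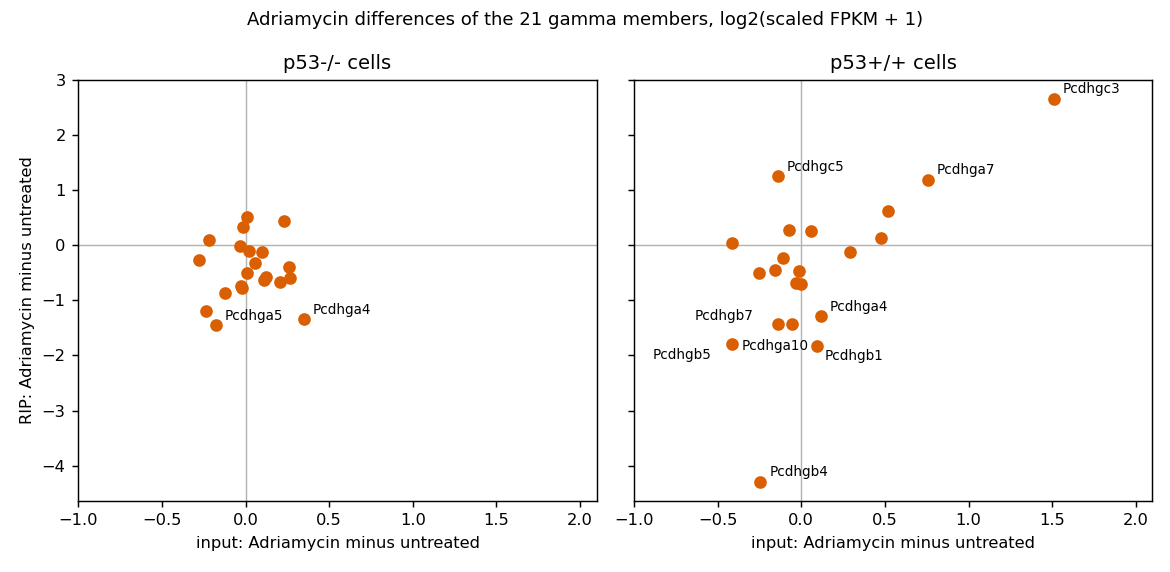
Adriamycin minus untreated difference of the 21 gamma members on the log2(scaled FPKM + 1) scale, input on the horizontal axis and RIP on the vertical axis, p53-/- cells left and p53+/+ cells right, 1 point per member. Pcdhgc3 stands at 1.51 and 2.66 in p53+/+ and at -0.22 and 0.10 in p53-/-, and Pcdhgb4 at -4.29 in p53+/+ RIP.

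The genotype comparison asked which RNAs differ without p53. In limma on the 4 inputs, with treatment as a term and 1 residual degree of freedom, no gene was called in either direction (0 of 11877), against 2418 genes (20.4%) at an unadjusted p under 0.05. The lowest estimate among the gamma members was that of Pcdhga1, at -0.80 ± 0.19 (SE, adjusted p 0.195). The p53-/- inputs held 1.57 FPKM of it with Adriamycin and 1.02 FPKM untreated, and the p53+/+ inputs 4.31 and 2.45 FPKM, so both p53-/- values were below both p53+/+ values. The share of all genes that separate in this way was not computed. In untreated input no member differed by 1 or more, where 2.01% of all genes were higher and 1.44% lower. With Adriamycin Pcdhgc3 alone did (-1.44), with 2.34 FPKM in p53-/- cells, against 9.001 FPKM in p53+/+ cells, where 7.01% of genes were lower by that much.

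In untreated RIP 4 gamma members were higher and 7 lower by 1 or more in p53-/- than in p53+/+ cells. The shares were 2.58% and 3.26% of all genes, and 3.97% and 5.40% of the 11877 with a mean of 1 FPKM or more. In FPKM as deposited the balance turned, with 5 higher and 2 lower, against 7.33% and 0.919% of all genes. With Adriamycin 2 were higher and 5 lower, against 5.31% and 10.3% of all genes and 8.82% and 14.3% of the 11877. As deposited 4 were higher and 1 lower with Adriamycin, against 17.4% and 4.27% of all genes. Pcdhga4 was higher at both treatments, by 1.11 with Adriamycin and 1.17 untreated. It had 12.0 and 30.5 FPKM in p53-/- RIP, against 2.86 and 8.55 FPKM in p53+/+ RIP. With Adriamycin and untreated, Pcdhgb7 differed by -1.40 and -2.56, Pcdhga11 by -1.38 and -1.44, and Pcdhga9 by -1.48 and -1.17, all on the scaled values. In FPKM as deposited Pcdhga11 and Pcdhga9 were not lower by 1 or more at either treatment, and Pcdhgb7 only untreated. Pcdhga4 stayed higher by 1 or more at both. In untreated RIP Pcdhgb4 differed by -3.02, and Pcdhgc3 had nearly the same scaled value in both genotypes, with 128 FPKM in p53-/- and 83.4 FPKM in p53+/+. The fibroblast markers differed between the genotypes in the same libraries, with 15 of all 23 higher by 1 or more in untreated p53-/- input (median 2.26), against 2.01% of genes, and their part in these differences was not tested.

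The RIP/input ratio was compared between genotypes with limma, from 2 pairs of each genotype and 2 residual degrees of freedom. Of the 18 gamma members tested, Pcdhga2 was called higher in p53-/- cells, where 0.834% of genes were, and Pcdhga11 lower, where 2.41% were. The scaled RIP minus input difference of Pcdhga2 was 2.49 with Adriamycin and 2.87 untreated in p53-/- cells, against 1.78 and 1.67 in p53+/+ cells (0.96 ± 0.18 SE, adjusted p 0.0458). For Pcdhga11 it was 3.91 and 3.56 in p53-/- cells, against 5.15 and 4.80 in p53+/+ cells (-1.24 ± 0.19, adjusted p 0.0262). The pairs of the 2 genotypes did not overlap for either gene, and the share of all genes without such overlap was not computed. Both calls were lost without a filter (adjusted p 0.216 and 0.192), under quantile normalization (0.0608 and 0.127) and without either p53-/- pair.

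Genes that set or use protocadherin expression were described from lists, chosen with earlier results of these data known. Of 26 regulators, 12 were called higher in RIP than in input and 5 lower, against 37.3% and 37.8% of the 11877 genes tested, with a median difference of 0.18 against -0.00 for all of those genes. Wiz, a zinc finger partner of the histone methyltransferases Ehmt1 and Ehmt2 that is also found at CTCF and cohesin sites, had 58.9, 63.7, 87.6 and 81.3 FPKM in RIP and 9.80, 8.89, 14.3 and 10.98 FPKM in input, for p53-/- with Adriamycin, p53-/- untreated, p53+/+ with Adriamycin and p53+/+ untreated. Its difference was 3.51 ± 0.18 (limma adjusted p 1.6e-05). The cohesin subunits Smc1a (2.25 ± 0.09) and Smc3 (1.74 ± 0.13) and the cohesin loader Nipbl (1.74 ± 0.16) were also called higher (adjusted p 1.1e-05, 3.8e-05 and 9.8e-05). Other cohesin genes of the list were not: Rad21 (-0.40 ± 0.19), Stag1 (0.01 ± 0.08) and Stag2 (-0.004 ± 0.11) were not called (limma adjusted p 0.0923, 0.888 and 0.974). Wapl was called lower (-0.53 ± 0.08, limma adjusted p 0.00094). Ctcf was at -0.05 ± 0.11 and not called (adjusted p 0.722). Dnmt3l, a cofactor of de novo DNA methylation, was called lower (-1.44 ± 0.08, adjusted p 2.0e-05).

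The counts of the other lists are read against the same shares of 37.3% higher and 37.8% lower. Of 19 tested partners of protocadherin signalling and processing, such as the WAVE complex and gamma-secretase, 2 were called higher and 10 lower. Among 20 non-clustered protocadherins and related large cadherins found in the tables, 3 passed the filter, and of these the adhesion protein Fat1 was called higher (0.79 ± 0.09, adjusted p 0.000235). Of 3 classical cadherins tested, Cdh2 was called higher and Cdh1 and Cdh3 lower. Cdh2 had 1.59 and 1.45 FPKM in p53-/- inputs and 0.348 and 0.425 FPKM in p53+/+ inputs, with Adriamycin and untreated. It passed the filter through RIP, so its call carries the limit given for the gamma members. Genes outside the clusters on the same stretch of the chromosome had 4 of 10 called higher and 4 lower, near those shares. Of 8 neural markers tested, 6 were called higher and 1 lower, while Dcx was under 0.1 FPKM in all 4 inputs. Of all 15 neural markers, 7 to 9 were at 1 FPKM or more in RIP libraries and 5 to 7 in inputs. Some may thus have passed the filter through RIP, which limits that count too. Of 10 embryonic stem cell markers 2 were called higher and 8 lower, and of 16 fibroblast markers 1 was called higher and 2 lower.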

How the data were processed

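The authors made TruSeq libraries, per the labels' protocols, and the submitters' processing notes name Cufflinks, TopHat, TopHat2 2.0.8, CASAVA 1.8.2 and build mm9. FPKM of each RefSeq record, with bounds and a status, was deposited by the authors, per the file headers. The status of all 57 members was OK. Coverage, also deposited by the authors, was used with length only for depth and for an alternative ratio of the gamma sums. Tool settings: not given in the sources used here.

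Records were matched by accession to symbols of a RefSeq gene table of GRCm38.p6 (29700 of 30769, 96.5%), used for names only, and FPKM was summed per gene. Levels are FPKM as deposited. For differences, libraries were scaled by median ratio (factors 0.533 to 1.45) and log2 was taken of the scaled value plus 1 FPKM. limma 3.58.1 (R 4.3.3, eBayes with trend) was fitted over all genes and tested on simulated data. Adjusted p-values are Benjamini-Hochberg values, with a threshold of 0.05. Comparisons with 1 library a side have no test and use a difference of 1.

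Members named were the 5 highest of each cluster, the C-type genes, those called, and those differing by 1 or more with Adriamycin in input and RIP, plus Pcdhga7, Pcdhga9 and others in the counts of members past 1. The members and lists were chosen with earlier results of these data known. All members lie on chromosome 18, and their sequences are not shown.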

Additional observations from a re-analysis of the deposited data

Results flagged for a closer look

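The RIP/input ratio differed between genotypes in the limma test for Pcdhga11 (-1.24, p53-/- minus p53+/+) and Pcdhga2 (0.96), with the lost calls given in the report.

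For 3 of the 18 gamma members tested, the difference between genotypes pointed one way in both Adriamycin libraries and the other way in both untreated libraries. The share of all genes with this pattern of signs was not computed, so the count is not read as a result about these members. This contrast of treatments was not tested, and with 1 library a side small values carry no weight. For Pcdhgc3 the p53-/- minus p53+/+ difference was -1.44 in input and -2.56 in RIP with Adriamycin, and 0.29 in input and 0.0047 in RIP untreated. For Pcdhgb4 it was 0.0043 in input and 0.070 in RIP with Adriamycin, and -0.0065 in input and -3.02 in RIP untreated. For Pcdhga10 it was 0.11 in input and 0.56 in RIP with Adriamycin, and -0.053 in input and -0.24 in RIP untreated. No group held more than 1 library, so no library could be compared with others of its own group.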

How the results depend on the processing

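Without a filter all 21 gamma members were called higher in RIP with 1 FPKM added, with 0.1 FPKM added and as deposited. The last 2 of these settings were chosen after seeing the data. Under the filter most members were kept through RIP, so their calls there say nothing about stability. The counts of genes called higher and lower in RIP, 4430 and 4487, were 1555 and 7273 with FPKM as deposited and 1799 and 7335 when the filter was dropped as well. Without the replicate block they were 2707 and 2683. A mean of 5 FPKM or more left 2527 genes called higher and 9 gamma members called, all 9 that were tested. The 4 ratios of gamma sums, given in the report as deposited, were 41.5, 52.4, 77.0 and 79.4 when scaled and 39.4, 49.5, 61.4 and 65.9 from coverage times length per base on transcripts, for p53-/- with Adriamycin, p53-/- untreated, p53+/+ with Adriamycin and p53+/+ untreated. In the genotype test of inputs, genes called higher and lower were 2 and 1 with 0.1 FPKM added, 22 and 3 at a mean of 5 FPKM or more, and 31 and 4 under quantile normalization, and no gamma member was called under any of the alternatives run. In the RIP/input ratio between genotypes, 99 genes were called higher and 286 lower, with 2 gamma members among them. With 0.1 FPKM added 1 gamma member was called, and with 5 FPKM added 39 genes higher, 187 lower and 1 member. No filter and single transcript records each gave 0 higher, 0 lower and 0 members, FPKM as deposited 4602, 178 and 9, and quantile normalization 12, 22 and 0. Leaving out 1 pair gave 2 to 364 higher, 2 to 766 lower and 0 to 10 members. Over these settings the adjusted p was 0.0022 to 0.216 for Pcdhga2 and 0.00011 to 0.195 for Pcdhga11. The ratio of Pcdhgc3 differed by -0.70 and by 0.069 as deposited, and neither value was called. Counts of gamma members differing by 1 or more between p53-/- and p53+/+ were 3 against the 0 of the report in untreated input with 0.1 FPKM added. In Adriamycin input they were 4 with 0.1 FPKM added, 0 with 5 FPKM added and 2 as deposited, against 1. In untreated RIP they were 4 with 5 FPKM added and 7 as deposited, against 11, and in Adriamycin RIP 4 with 5 FPKM added, against 7. Counts between Adriamycin and untreated were 4 with 0.1 and 0 with 5 FPKM added in p53+/+ input, against 1, and 5 with 5 FPKM added in p53+/+ RIP, against 9. In p53-/- they were 2 in input and 5 in RIP with 0.1 FPKM added, against 0 and 3. Leaving 1 treatment out of the genotype test of inputs leaves 1 library a side, whose differences stand in the report without a test. The causes of these differences were not tested. Only 4 gamma members had an input mean of 1 FPKM or more, which limits every ratio over input.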
